A study of Bos taurus with 47 samples.

Results

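A set of 112 genes was lower in all 4 bovine frontal cortex libraries than in any of the 43 libraries of other tissues. They were taken from 24616 Ensembl gene identifiers whose levels are given in FPKM, that is fragments scaled by transcript length and by the fragments of the library. A member's highest cortex value had to lie below the lowest value of every other library. The unweighted mean of its 14 other label means had to be at least 1 FPKM and at least 4 times its cortex mean. These values chose the members, so the gap between cortex and the rest is described here and not tested. The identifiers are not paired with gene symbols, so no member's function can be given. Members are described by their levels and by the tissue in which each was highest.

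Tissue RNA of Holstein cattle was sequenced in 47 samples with 15 tissue labels, which name no treatment, genotype or age. Animals are named here male A, male B, lactating cow and dry cow, and values in groups of 4 are given in that order. These 4 gave 1 library each of frontal cortex, spleen, rumen, muscle, lung, liver, kidney, ileum, heart and adipose tissue. Both cows gave ovary and uterus, the mammary gland was sampled once from each of them, and a further male gave the only lymphocyte library. Both mammary gland labels and the lymphocytes therefore have no replicate among the 47 samples.

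The frontal cortex is built of neurons and glial cells and is supplied by vessels that form the blood-brain barrier, which keeps most blood cells and plasma proteins out of the tissue. Most other organs hold more connective tissue, epithelium and resident or circulating leukocytes. In bulk tissue, fewer cells of a type and less RNA per cell cannot be told apart.

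Some features of the whole series touch the comparison of cortex with the other libraries. Library sums ran from 576130 to 964931 FPKM, and the cortex sums, at 576130 to 602121, lay at the low end of that range. The depth in fragments is unknown. Relative depth, read from the steps between low values, was 0.807 to 0.941 in the cortex libraries against 1.44 in the deepest library, the kidney of male A. Some libraries of spleen, kidney, ileum, adipose tissue and uterus lay in the cortex range, such as the spleen of male A at 0.824. Traces of transcripts of other tissues were found in 37 libraries, while 9 libraries of the lactating cow, its cortex among them, and the lymphocyte library held few. The labels name no batch. Neuronal and glial markers could not be looked up without gene names, so the cortex label was not checked against them.

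The members ranged from weakly to very highly expressed genes. Their mean over the other 14 labels ran from 1.12 to 4167 FPKM with a median of 27.9, and their cortex mean ran from 0 to 929 FPKM with a median of 1.85. Of the 112, 42 stayed under 1 FPKM in all 4 cortex libraries, and 76 reached 1 FPKM in all 43 other libraries. The ratio of the outside mean to the cortex mean had a median of 17.3 over the members above 0 in cortex. It was at least 100, or the cortex was listed at 0, for 17 members. It lay from 10 to under 100 for 57 and under 10 for 38.

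**Figure D1:**
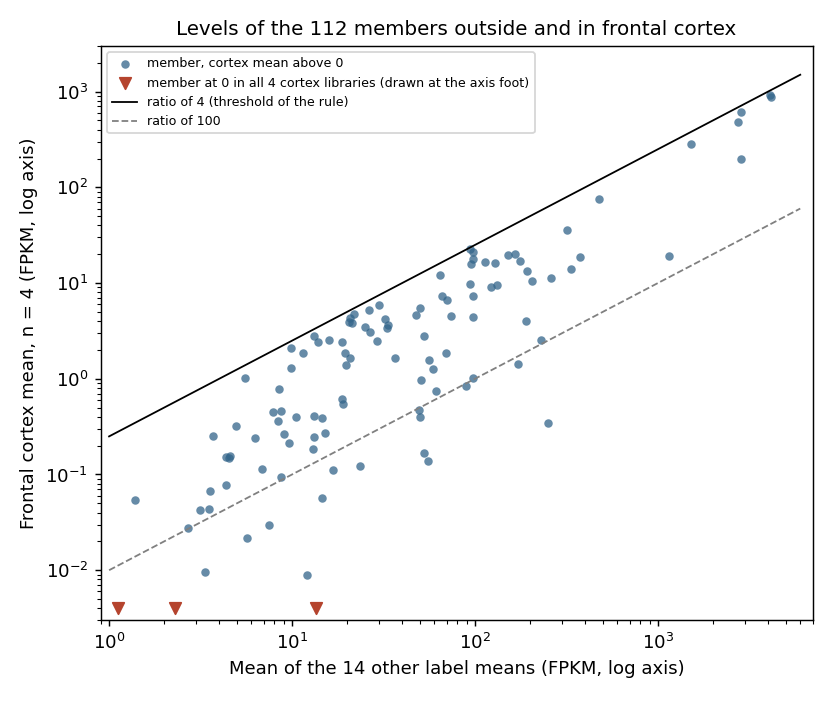
Mean level of each of the 112 members over the 14 other labels (horizontal, FPKM, log axis) against its mean in the 4 cortex libraries (vertical, FPKM, log axis). Every point lies under the ratio of 4 that the rule requires. The most abundant stands at 4167 FPKM outside cortex, and 3 are listed at 0 in all 4 cortex libraries.

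Among the 16634 genes that reached 1 FPKM in at least 2 libraries, 0.872% (145 genes) were lower in cortex than in every other library and 0.673% (the 112 members) also met the ratio and the minimum mean. The 3 members just inside the ratio stood at 4.15, 4.43 and 4.61, and the 3 identifiers just outside it at 3.95, 3.92 and 3.92. The separation was far stricter than the ratio. Of 3059 identifiers with the required ratio and mean, 2947 overlapped with at least 1 other library. For the 109 members above 0 in cortex, the lowest other library was a median of 1.46 times the highest cortex library, and for 24 members it was under 1.1 times. The number of members also rested on single labels and animals. It was 175 without the lymphocyte library, 191 without the lactating cow and 169 without the dry cow. Without the 10 libraries that held few traces it was 209. With each library rescaled to the same FPKM sum it was 58, all of them among the 112, and with quantile normalization 677, of which 108 were among the 112.

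The 7 most abundant members had outside means of 4167, 4119, 2855, 2844, 2737, 1510 and 1143 FPKM. The first of them had 816, 855, 986 and 837 FPKM in the 4 cortex libraries, against 1663 (muscle of male B) to 7842 FPKM (rumen of the lactating cow) elsewhere. The second had 843, 1031, 970 and 870 FPKM in cortex and was lowest elsewhere in liver, at 1299 FPKM in the dry cow. Both were abundant in cortex too, and their cortex mean was lower by a factor of 4.77 and 4.43. The ratio was 14.3 for the fourth most abundant and 59.1 for the seventh, ENSBTAG00000048122. The fourth had 190, 186, 189 and 229 FPKM in cortex and reached 6908, 7002, 8856 and 8502 FPKM in spleen and 3713, 6575, 11597 and 7895 FPKM in ileum. Its cortex values lay far below those of both tissues. All members together held 0.669% ± 0.0288 of the summed cortex FPKM (SD, n = 4) and from 1.1% in the lactating gland to 5.76% in lymphocytes among the other libraries. Without the 7 they held 0.0871% to 0.0927% in cortex and 0.279% to 2.03% elsewhere.

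The largest finite ratio belonged to ENSBTAG00000003255. It was listed at 0 in the cortex of both males and the lactating cow and at 0.0353 FPKM in that of the dry cow. Lymphocytes had 111 FPKM, the 4 ileum libraries 35.1, 19.3, 14.0 and 33.2 FPKM, and the 4 spleen libraries 16.6, 17.2, 20.1 and 18.4 FPKM. In muscle it had 0.0665, 0.0440, 0.165 and 0.0464 FPKM. Lymphocytes, ileum and spleen were thus high, and the gap between cortex and muscle was narrow.

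ENSBTAG00000011976 followed with a ratio of 723. Its cortex values were 0.0505, 0.323, 0.470 and 0.540 FPKM. Lung stood at 2777, 2693, 4168 and 3998 FPKM, and adipose tissue came next with a mean of 28.2 FPKM. The lowest values outside cortex were 0.565 FPKM in lymphocytes and 0.631 in the lactating gland. Only lung was high, and the dry cow's cortex was nearly level with lymphocytes and the lactating gland. The cortex mean was 101 ppm (parts in 1000000) of the lung mean, within the 0 to 332 ppm at which genes of liver, rumen and muscle appeared as traces in the cortex libraries. The cortex library with few traces, that of the lactating cow, had 0.470 FPKM, and the part of traces in these values was not tested. The cortex mean of 5 members was at most 332 ppm of their highest label mean, and 3 of these are the members listed at 0.

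The 3 members at 0 in every cortex library had outside means of 13.6, 2.28 and 1.12 FPKM. The first reached 81.8 FPKM in lymphocytes and 59.3 in spleen but 0.0265 FPKM in 1 muscle library. The second was highest in lung (7.23 FPKM) and the third in ileum (5.18 FPKM). A value of exactly 0 may stand for an estimate that failed. A further 15 members were listed at 0 in some of the cortex libraries.

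Only 6 members stayed under 1 FPKM in each cortex library and at 1 FPKM or more in every other library. This group was picked out after its values were seen. ENSBTAG00000022564 had 0.0673, 0.2, 0 and 0.291 FPKM in cortex, a lowest value elsewhere of 1.26 FPKM in the muscle of male B, and 385, 408, 290 and 589 FPKM in liver. Lung came next with 138, 83.3, 173 and 368 FPKM, followed by heart with 67.9 to 109 FPKM. The cortex mean of ENSBTAG00000022564 was 334 ppm of its liver mean, just above the highest trace level in a cortex library, 332 ppm. Its cortex value of 0 was that of the lactating cow, whose cortex library held few traces. The part of traces in these values was not tested. Another of the 6 peaked in uterus, at 288 FPKM, and had 0.266 to 0.633 FPKM in cortex. The other 4 were highest in ileum (161 FPKM), spleen (93.9), lymphocytes (64.6) and lung (27.1).

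**Figure D2:**
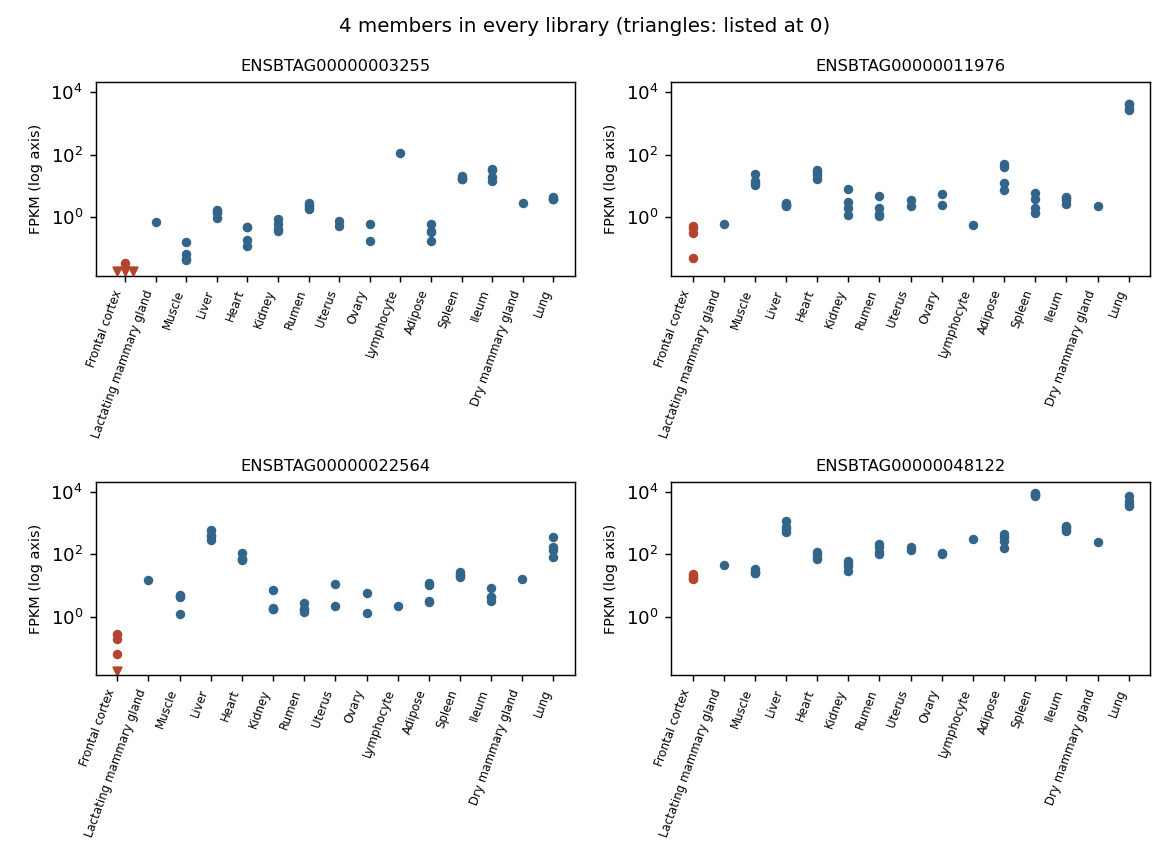
FPKM of 4 members in every library (log axis, 1 point per library, triangles for libraries listed at 0, cortex in red). The cortex libraries are the lowest in each panel, while the highest are lymphocytes at 111 FPKM, lung at 4168, liver at 589 and spleen at 9031.

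No single organ was the opposite of cortex. The highest label was lymphocytes for 20 members, ileum for 12, lung and kidney for 10 each, liver, uterus and adipose tissue for 9 each, spleen for 8, the dry gland and rumen for 7 each, muscle for 5, ovary for 3, heart for 2 and the lactating gland for 1. As a yardstick, 11366 genes, the members among them, were above 0 in all 43 other libraries with a mean of at least 1 FPKM. They are called widely expressed here. Of these, 26.5% were highest in lymphocytes, against 17.9% of the members. Liver led for 8.04% of the members and 2.82% of the widely expressed genes, adipose tissue for 8.04% and 3.92%, and ileum for 10.7% and 6.41%. The highest label was lymphocytes, spleen, ileum or lung for 44.6% of the members and 45.0% of the widely expressed genes, so these labels taken as a group led no more often among the members. In 9 members 1 label outweighed the other 13 together in the sum of label means. That label was lymphocytes for 4, liver for 2 and spleen, lung and ileum for 1 each. The spread over labels, as the highest over the lowest of the 14 label means, had a median of 26.2 for the members and 11.9 for the widely expressed genes. The rule held the members to a ratio, which can favour a wide spread, and did not hold the widely expressed genes to it. Nothing is therefore read from this difference.

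**Figure D3:**
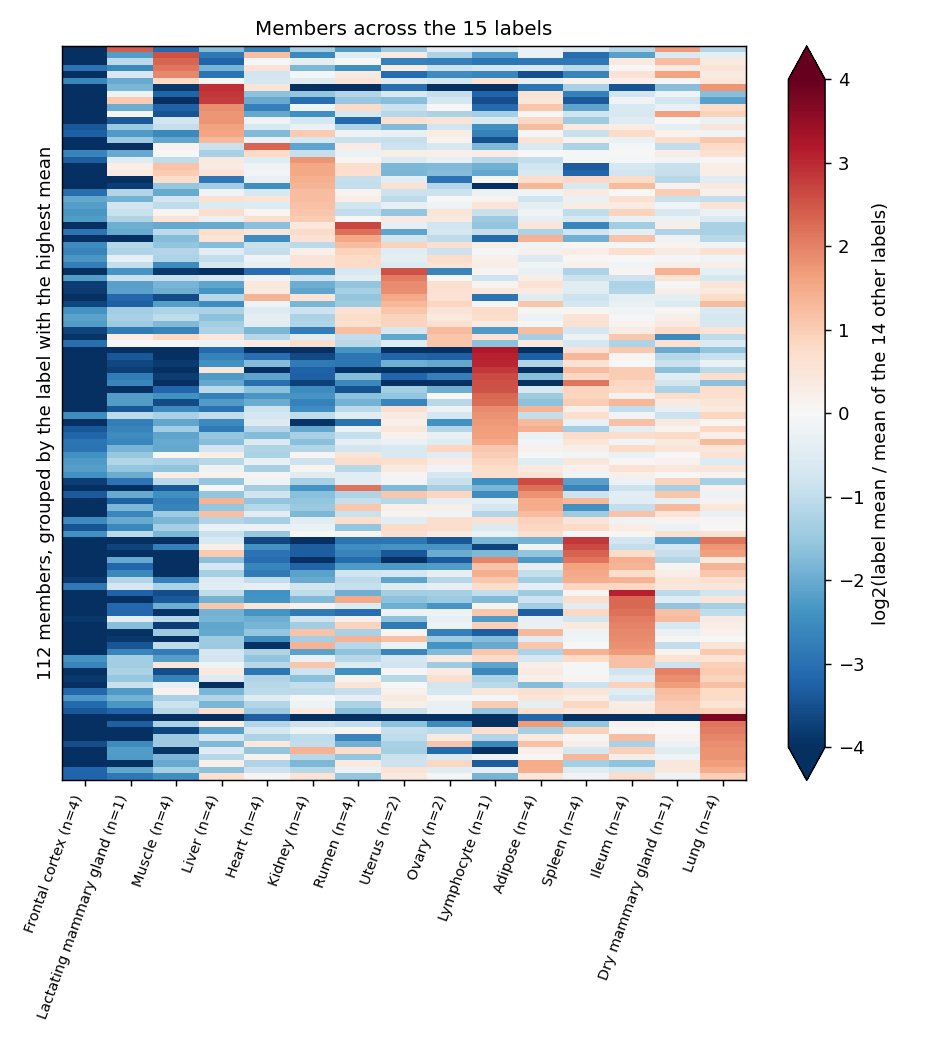
Level of each member in each label relative to its mean over the 14 other labels (log2, colour scale ends at -4 and 4). The members are grouped by their highest label, and columns run from the lowest to the highest median member level. Frontal cortex is the blue column at the left, and no other column is blue throughout.

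Members with the same highest tissue still differed widely in cortex. Of the 9 members highest in liver, ENSBTAG00000022564 had the largest ratio, 397, and the smallest was 9.70. A second one was nearly silent in cortex, at most 0.191 FPKM, against 21.4 in liver and 18.6 in lung and no less than 0.776 anywhere else. The 9 highest in adipose tissue had ratios from 5.32 to 82.3. The most abundant of them had 1043 FPKM there, 933 in the dry gland and 11.3 to 23.9 FPKM in cortex. Of the 9 highest in uterus, 3 belong to the 7 most abundant members. Another had 485 FPKM in uterus, 204 in ovary and 7.19 to 11.6 FPKM in cortex. The 2 highest in heart were both second in lung. One had 450 FPKM in heart and 155 in lung with 0.491 to 1.24 FPKM in cortex, and the other 820 and 725 FPKM with 66.1 to 89.1 FPKM in cortex. Of the 7 highest in the dry gland, 6 were second in lung, the most abundant with 751 and 550 FPKM and 31.9 to 44.1 FPKM in cortex.

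The widest gaps to the nearest other library were not found in the most abundant members. An ileum member had at most 0.0533 FPKM in cortex and at least 0.369 elsewhere, 6.92 times as much. A spleen member with 75.1 FPKM there and 46.1 in lung had at most 0.0823 FPKM in cortex and at least 0.499 elsewhere, 6.06 times as much. The narrowest gap was that of a rumen member with 190 FPKM in rumen and 15.1 to 17.9 in cortex, whose lowest other library exceeded the highest cortex library by a factor of only 1.00075.

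The lymphocyte library was the highest label for 20 members and the lowest for 15. The latter is 13.4%, against 11.5% of the widely expressed genes. A level of at least 2 times the mean over the 14 labels was found for 20.5% of the members and 22.4% of the widely expressed genes. A level of less than 25% of that mean was found for 28 members, against 16.7% of the widely expressed genes. The most lymphoid member beside those named had 1450 FPKM in lymphocytes and 431 in spleen, and 0.555, 0.479, 1.71 and 3 FPKM in cortex.

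Outside cortex, muscle and the lactating gland were the labels nearest to it. Muscle was the lowest of the 14 labels for 39 members and the lactating gland for 39. Muscle was also lowest for 27% of the widely expressed genes and the lactating gland for 43.7%, against 34.8% of the members each. In both labels a few genes took much of the summed FPKM. The 10 most abundant held 33.6% to 34.0% in muscle and 75.6% in the lactating gland, against 7.14% to 10.1% in cortex. Each FPKM is a share of its library, and the part of these genes in the low values of other genes was not tested. In cortex the widely expressed genes stood at 89.4% to 93.3% of their mean over the other labels, as the median per library. The part of scaling in the low cortex values of the members was not tested either.

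The typical member level was compared in the same way. In cortex the median member stood at 4.59%, 5.25%, 5.33% and 6.47% of its mean over the other labels. The cortex library with few traces, that of the lactating cow, lay inside the range of the other 3, and the part of traces in these levels was not tested. The next lowest libraries were the lactating gland at 21.9% and the muscle libraries at 24.8% to 28.6%. Lung was the highest label, with 124% to 134%. Kidney stood at 48.0% to 50.5%, while its widely expressed genes stood at 97.4% to 104%. Uterus (57.9% and 67.0%) and ovary (64.0% and 64.8%) also had lower medians for members than for widely expressed genes, which lay at 92.4% to 104% there. The same held for lymphocytes, at 78.0% for members and 115% for widely expressed genes, and with a smaller gap for spleen, at 98.0% and 110% as label means. Rumen (57.7% and 71.5%), muscle (27.6% and 37.4%), heart, ileum and both mammary gland labels also had lower label means for members. Only lung (128% and 108%), adipose tissue (90.3% and 87.2%) and liver (48.7% and 46.8%) had higher ones.

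**Figure D4:**
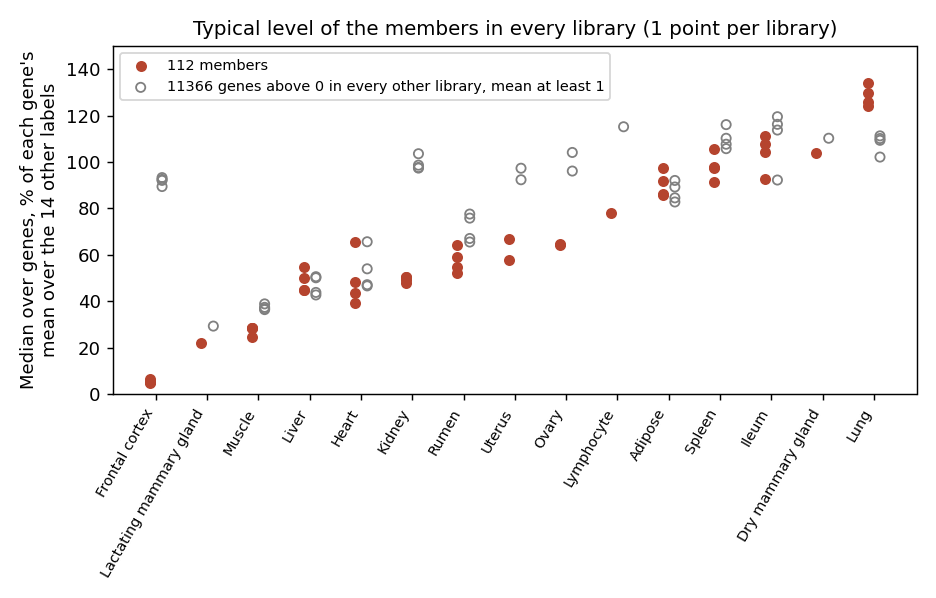
Median level in each of the 47 libraries as a percentage of each gene's mean over the 14 other labels, for the 112 members (red) and the 11366 widely expressed genes (open grey). In cortex the members stand near 5% and the widely expressed genes near 92%. In kidney the members stand near 50%, about 50 percentage points below the widely expressed genes.

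The rule did not compare the other 14 labels with each other, but it used their lowest library and the mean of their label means. A very high level in 1 label could therefore raise the ratio, and no member could fall to its cortex level elsewhere. The contrasts among these labels, fitted with cortex left out, are thus not independent of the rule, and their counts are descriptions. Spleen, lung, muscle and liver were each set against the unweighted mean of the other 13 labels with limma on log2(FPKM + 1), among 16120 genes. A gene was called at a Benjamini-Hochberg adjusted p under 0.05 and a difference of at least 1, that is 2-fold. All 112 members entered the fit. The members are expressed in all of these libraries, so their shares are set beside those of the widely expressed genes as well as of all genes tested. All contrasts share most of their libraries and are not independent of each other.

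Of the 112 members, 50 were called higher in lung (44.6%), against 18.4% of all genes tested and 18.1% of the widely expressed genes, and the members' median difference was 0.83 on the log2 scale, against 0.30 and 0.39. None was called lower, against 2.74% of all genes and 1.73% of the widely expressed genes, although 15 were lower at an unadjusted limma p under 0.05, as were 16.8% of all genes. After quantile normalization, which moved the all-gene median by -0.48, the fit gave 36 higher and 7 lower members. The shares of all genes tested were then 10.96% called higher and 7.26% called lower. The largest difference was that of ENSBTAG00000011976, 9.40 ± 0.32 (SE), with a limma adjusted p of 1.02e-22, and all 4 lung libraries lay above every other library. Lung also raised the outside mean of this member, which the rule used, as its mean over the other 13 labels was 7.29 FPKM. ENSBTAG00000048122 had 3557, 5170, 7316 and 4032 FPKM in lung, and its difference was 4.55 ± 0.21.

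Spleen, the lymphoid organ that filters blood, had 28 members called higher (25%, against 16.1% of all genes and 16.7% of the widely expressed genes) and 12 called lower (10.7%, against 7.11% and 5.23%). The members' median difference of 0.37 was close to the 0.36 of the widely expressed genes. ENSBTAG00000048122 led, with 7501, 7020, 9031 and 8632 FPKM in spleen, 25.2 to 35.1 in muscle and 17.0, 19.7, 23.0 and 17.7 FPKM in cortex. Its difference in spleen was 5.33 ± 0.21 (SE, limma adjusted p = 9.31e-21), and its spleen libraries overlapped with those of lung. The 2 members with the largest falls in spleen, of 2.83 and 2.71 on the log2 scale, had 4.07 to 6.67 and 5.31 to 7.73 FPKM there. All other libraries outside cortex had at least 11.7 and 13.8 FPKM. Both were highest in kidney, at 149 FPKM ± 46.7 and 171 ± 63.4 (SD, n = 4), with muscle second. In cortex they had 0.531 to 1.30 and 0.852 to 1.55 FPKM. After quantile normalization, which moved all genes by a median of -0.33, the fit gave 23 higher and 17 lower members in spleen. Of all genes, 10.6% were then called higher and 11.1% lower.

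In muscle, 67 members were called lower (59.8%), against 39.3% of all genes and 47.3% of the widely expressed genes, and 9 were called higher (8.04%, against 6.02% and 5.81%). The median difference was -1.23 for the members and -0.95 for the widely expressed genes. The counts of this contrast rested on the scaling, for the members and for all genes. After quantile normalization, which moved all genes by a median of 0.79, the fit called 39 members lower and 16 higher. Of all genes, 14.7% were then called lower and 12.7% higher. The median difference became -0.44 for the members and -0.08 for the widely expressed genes. The largest fall was that of a spleen and lymphocyte member with 1.72 to 2.28 FPKM in the 4 muscle libraries and at least 4.49 FPKM elsewhere outside cortex (-3.72 ± 0.26, limma adjusted p = 7.26e-15). Its cortex values, 1.54, 1.59, 1.58 and 1.63 FPKM, were just below those of muscle. Among the members called higher, the leading one had 1615 to 2362 FPKM in muscle and 37.8 to 869 FPKM in the other tissues, with heart second, and 12.2, 12.4, 14.4 and 16.4 FPKM in cortex. Its difference was 3.79 ± 0.13.

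In liver, 21 members were called higher (18.8%, against 8.53% of all genes and 7.13% of the widely expressed genes) and 33 lower (29.5%, against 25.9% and 30.9%). After quantile normalization, which moved all genes by a median of 0.44, the fit called 26 members higher and 21 lower. Of all genes, 11.3% were then called higher and 11.6% lower, so the balance moved the same way in all genes. ENSBTAG00000022564 had the largest rise, 5.29 ± 0.33 (SE, limma adjusted p = 1.38e-15). The next 2 had 1589 FPKM ± 350 and 1357 ± 310 in liver (SD, n = 4), at most 492 and 430 FPKM in any other library and means of 2.51 and 4.02 FPKM in cortex.

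Kidney was added to the comparisons after its low member level was seen. In the same fit 39 members were called lower in kidney (34.8%), against 8.78% of all genes and 8.86% of the widely expressed genes, and 17 were called higher (15.2%, against 17.3% and 17.0%). The median difference was -0.61 for the members and 0.22 for the widely expressed genes. It was -0.80 and -0.15 after quantile normalization, and -0.45 and 0.37 after rescaling to the same sum. ENSBTAG00000048122 was among the lower ones, with 43.3, 62.2, 28.5 and 52.3 FPKM in kidney and a difference of -2.69 ± 0.21 (limma adjusted p = 2.56e-13).

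**Figure D5:**
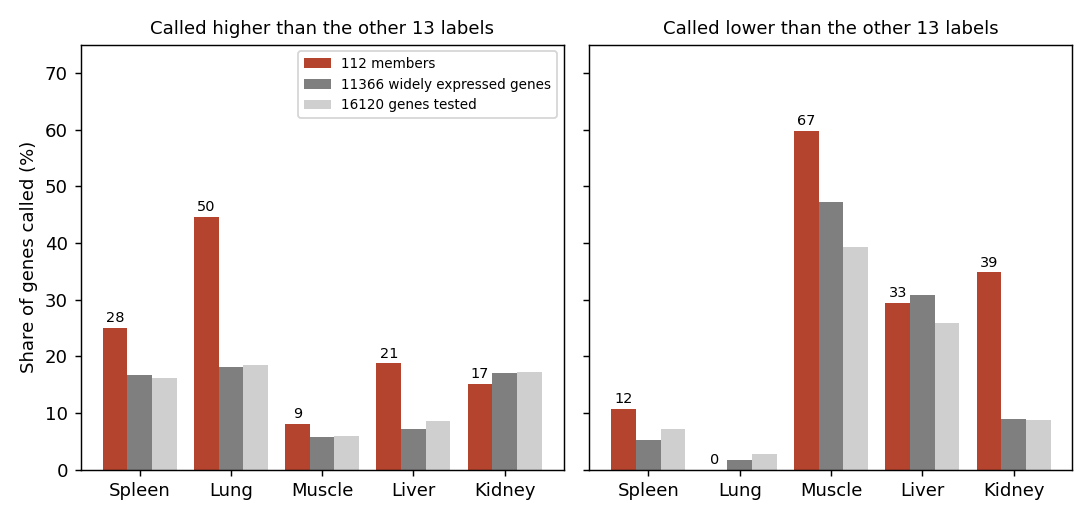
Share of genes called higher (left) or lower (right) in 5 tissues against the other 13 labels with cortex left out, for the 112 members, the widely expressed genes and all genes tested (bars start at 0, member counts above the red bars). Members exceed the background most in lung on the higher side, 44.6% against 18.4%, and in kidney on the lower side, 34.8% against 8.78%.

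The lactating gland was set beside the dry gland, each with 1 library and from different cows, without a test. On log2(FPKM + 1), 107 of the 112 members were lower in the lactating gland, as were 96.3% of the widely expressed genes. A difference of at least 2 downwards was found for 50 members (44.6%), against 26.3% of the widely expressed genes, and the median difference was -1.88 against -1.51. The 1 member that was highest in the lactating gland had 370 FPKM there and 228 in the dry gland, with 1.93, 1.81, 1.93 and 1.74 FPKM in cortex and 7.63 FPKM or more in every other library.

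Males and females were compared in cortex, with 2 libraries each, in a limma fit over the 40 libraries of the 10 tissues with 4 animals. The rule used these cortex values and kept all of them low, which limits any difference between them, so the counts are given as a description and nothing is read from them. No member was called higher in males, against 0.206% of the 16503 genes tested, and none higher in females, against 0.0424%. At an unadjusted limma p under 0.05 there were 0 and 5 members, against 2.94% and 3.38% of all genes. With a pseudocount of 0.1 in place of 1, 2 members were called higher in females, of 8 genes so called in all. The largest of these differences in size, males minus females, was -1.12 ± 0.32 (SE, limma adjusted p = 0.213), in the member with 1450 FPKM in lymphocytes. No member differed between cortex and the other 9 tissues in its male minus female difference at an adjusted p under 0.05, against 0.164% of the genes in one direction and 0.0970% in the other. At an unadjusted limma p under 0.05 there were 0 and 9 members, against 1.73% and 5.24% of all genes.

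The spread between the cortex libraries is likewise a description, since the rule used these values. Among the 66 members with a cortex mean of at least 1 FPKM, the coefficient of variation over the 4 libraries had a median of 15.3%, with a range of 1.36% to 82.5%. For 10687 widely expressed genes that are no members and had such a mean it was 12.6%. Of the 94 members above 0 in every cortex library, 33 were highest in the dry cow, 26 in the lactating cow, 18 in male B and 17 in male A. Over the 9 other tissues of the same 4 animals, tissue took a median of 94.1% of a member's variance and the animal 0.842%. For the widely expressed genes these were 92.4% and 1.34%.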

How the data were processed

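The authors deposited FPKM in 1 table of 51 columns, of which 47 were matched to samples by name (1 muscle column differs from its title by a letter) and 4 were left unused. The unused columns carry Mamdup or Lym in their names but match no sample title, so their samples are not known here. Tools named in the submitters' processing notes are STAR, Cufflinks and Trimmomatic 0.39, with the assembly UMD3.1. Their settings and the gene annotation are not known here. Total RNA went into Illumina TruSeq libraries read as pairs, per the labels' protocols.

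No identifier could be matched to a symbol, since the reference table belongs to another assembly and holds no Ensembl identifiers. The marker and pathway lists prepared by symbol were therefore not applied, no sequence is shown, and the naming rule fell back on ranks, with 4 identifiers printed. The members, lists and comparisons were chosen with earlier results of these data known.

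Values were taken as log2(FPKM + 1), which understates differences of low genes, and fitted with limma 3.58.1 in R 4.3.3 (trend on mean level, genes reaching 1 FPKM in 2 or more libraries). limma was tested on simulated data. Animal numbers come from the sample titles. Same-animal libraries deviated together (median correlation 0.182, over 0.1 in 152 of 180 pairs). Traces were read from genes with at least 2000 FPKM in liver (18 genes), rumen (10) or muscle (9) and at least 100 times every other label. Libraries under 50 ppm of rumen genes (liver genes in rumen) counted as holding few. Tables were made with pandas 2.3.3 in Python 3.11.15 and plots with matplotlib 3.10.9. The alternatives were other scalings, pseudocounts, filters and sample sets.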

Additional observations from a re-analysis of the deposited data

Results flagged for a closer look

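In 4 of the members described, 1 cortex library stood far from the other 3. The member with the fourth highest outside mean had 229 FPKM in the cortex of the dry cow and 186 to 190 FPKM in the others. The third most abundant had 693 FPKM in that of the lactating cow and 581 to 592 FPKM in the others. ENSBTAG00000003255 (0.0353 FPKM in the dry cow) and the member with the fourth largest ratio (0.0386 FPKM in male B) were listed at 0 in the other 3. In muscle, the median member level was 24.8% of its mean over the other labels in the dry cow and 28.4% to 28.6% in the other 3 animals. There were 5 such groups in 47 examined, where chance gives about 1 in 20. For the 2 members at 0 in 3 libraries any value above 0 meets the criterion, so only the other 3 groups can be set against that share.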

How the results depend on the processing

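The 27 leading differences, which belong to 20 members, kept their direction and call under all 351 alternatives computed, and 145 of 160 alternative counts stayed within 1.5 times. The 27 were picked as the largest called differences, which favours keeping the call, and another filter leaves a difference itself unchanged. Counts that were 0 in both fits, as in most alternatives between the sexes, were taken as unchanged. These totals therefore say little about stability. The number of members moved from 112 to 175 without the lymphocyte library, 209 without that library and the 9 others with few traces (109 shared with the 112), 58 after rescaling to the same sum and 677 after quantile normalization (108 shared). Leaving out each animal in turn gave 122 to 191. Quantile normalization gave 7 members lower in lung in place of 0, 16 higher and 39 lower in muscle in place of 9 and 67, and 21 lower in liver in place of 33. The shares of all genes moved too. They went from 2.74% to 7.26% lower in lung and from 25.9% to 11.6% lower in liver. In muscle they went from 6.02% to 12.7% higher and from 39.3% to 14.7% lower. Members lower in lung numbered 1 without lymphocytes, 1 without the libraries with few traces and 3 with only the 9 tissues of 4 animals. Without each animal in turn they numbered 0 to 1. In these fits 2.59% to 5.89% of all genes were lower in lung. With a pseudocount of 0.1, 2 members were higher in females in cortex, against 0.0485% of all genes. The cause of these changes was not tested. By its definition the separation asks for fewer comparisons where libraries are left out. With the animal as a replicate block and without lymphocytes, 50 members were higher in lung and 67 lower in muscle, against 18.7% and 39.7% of all genes. There were 31 higher in spleen and 33 lower in liver, against 17.8% and 25.1% of all genes. The block changed no count by over 1.5 times. In kidney, between 33 and 47 members were lower under all alternatives, against 6.92% to 14.5% of all genes. Depth limits the members near 0 in cortex, whose fragment counts are unknown.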
